A study of Mus musculus with 16 samples.

Results

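The arterial and venous markers of the brain endothelium described here were 9 genes, read from the table of counts by their symbols: Gja4, Gja5, Bmx, Vegfc, Gkn3 and Cytl1 for arteries and Nr2f2, Il1r1 and Tmsb10 for veins. They were 9 of 37003 genes in the table, each had 1 row, and all 9 passed the filter that left 31085 genes for testing. The RNA came from brain endothelial cells (bECs), sorted as living (DAPI-), CD45- and CD31+ cells 72 hours after surgery. MCAo closes the middle cerebral artery, here for 30 minutes before reperfusion, and sham surgery leaves it open. There were 16 libraries, 4 in each group formed by genotype (CTRL or YT-iKO) and operation (sham or MCAo), and every library was a pool of adult mice. The study used males and females but does not state which went into a given pool. All mice carried floxed Yap and Wwtr1 (Taz) alleles (Yapfl/fl, Wwtr1fl/fl) and all received tamoxifen before surgery. YT-iKO mice also carried Pdgfb-iCreERT2 (named Pdgfb-iCreER-eGFP in the study's methods), which drives an inducible Cre recombinase from the endothelial Pdgfb promoter, and their CTRL littermates lacked it. The whole sort was sequenced as bulk RNA, so a lower level of a marker through fewer cells of a vessel type and through less RNA per cell cannot be told apart.

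Blood vessels of the brain change their gene expression gradually from artery through capillary to vein. Arterial identity is set by VEGF and Notch signalling, whereas NR2F2 (COUP-TFII) holds Notch signalling down in veins, where most leukocytes adhere and leave the blood. Arterial endothelial cells are joined by gap junctions of connexin 37 (Gja4) and connexin 40 (Gja5), through which a change in vessel tone spreads along the wall. YAP and TAZ are transcriptional coactivators that bind DNA through TEAD factors.

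The libraries held 11418262 to 23074547 counts. Yap1 was 112 ± 0.511 CPM (a gene's counts scaled to the same library total; mean ± SD, n = 4) in CTRL sham and 106 ± 26.8 in CTRL MCAo, and fell to 49.3 ± 9.70 in the sham group of YT-iKO and 47.2 ± 11.6 in its MCAo group (edgeR adjusted p = 0.0371 after sham and 0.0478 after MCAo). Wwtr1 fell by 1.88 on the log2 scale in YT-iKO after either operation, with edgeR adjusted p values of 0.00381 after sham and 0.00356 after MCAo. The 10 endothelial markers checked, among them Pecam1 and Cdh5, summed to between 8157 and 16467 CPM, and the 8 smooth muscle markers to between 106 and 206 CPM. A low level of reads on 1466 receptor genes of smell, taste and the vomeronasal organ differed between libraries. Their summed level was 1816 to 2124 CPM in YT-iKO sham replicate 3 and YT-iKO MCAo replicates 2 and 3, and 208 to 1611 CPM in the other 13 libraries. These levels ran on from one another, whereas the lowest, 208 CPM in YT-iKO MCAo replicate 4, was well below the next at 711 CPM. Leaving out the 3 highest, a setting chosen after seeing the data, keeps 3 YT-iKO sham libraries and only YT-iKO MCAo replicates 1 and 4. Levels are also given as CPM scaled on the 9132 genes that averaged 10 CPM or more ("abundant-gene scale"), which leaves the sparsely counted genes out of the scaling factor. Xist was above 50 CPM in 7 libraries, with 1 or 2 of them in each group.

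All 9 markers are protein-coding genes, and positions are those of GRCm38 in GENCODE M21. Gja4 lies at chr4:127311421-127314039, Gja5 at chr3:96904693-97077416, Bmx at chrX:164192842-164258193 and Vegfc at chr8:54077606-54187096. Gkn3 lies at chr6:87383256-87388935, Cytl1 at chr5:37735519-37739820, Nr2f2 at chr7:70351944-70366735, Il1r1 at chr1:40225080-40317257 and Tmsb10 at chr6:72957347-72958748. Gja5 shares 165 exonic bases with Gpr89 and Nr2f2 shares 643 with B130024G19Rik, each on the other strand, and since the library kit does not mark strand, reads in those bases cannot be told apart.

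Levels of different genes were compared per kilobase of exon. In CTRL sham, Tmsb10 had the highest level of the 9, at 69.3 ± 5.71 CPM per kilobase (SD, n = 4). Gkn3 followed at 24.7 ± 3.80 CPM per kilobase and Il1r1 at 16.2 ± 1.98. Bmx was next at 14.3 ± 0.134 CPM per kilobase, below every library of Il1r1. Vegfc was at 9.06 ± 0.756 CPM per kilobase, Nr2f2 at 6.32 ± 1.63 and Gja4 at 5.88 ± 0.737. The ranges of Vegfc and Nr2f2 overlapped across libraries, although Vegfc was above Nr2f2 within each of the 4. Nr2f2 and Gja4 overlapped and were in no constant order within libraries, so these neighbours did not differ beyond their spread. Cytl1, at 2.17 ± 0.776 CPM per kilobase, and Gja5, at 0.942 ± 0.217, were lowest and did not overlap with each other. Receptor genes had 0.0413 to 0.421 CPM per kilobase across the libraries. If reads of that density lay evenly over the exons of Gja5, which was not tested, their share would be 2.44% to 40.6% of its level. For Cytl1 the corresponding share was 4.79% to 22.1%, and for the other 7 markers it stayed at or under 11.6%. In YT-iKO MCAo, Tmsb10 (74.5 ± 31.1 CPM per kilobase) was still highest, and Gja4 (29.7 ± 23.6) stood beside Il1r1 (36.3 ± 18.7) and Gkn3 (29.7 ± 11.3), whose libraries overlapped with it.

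**Figure D1:**
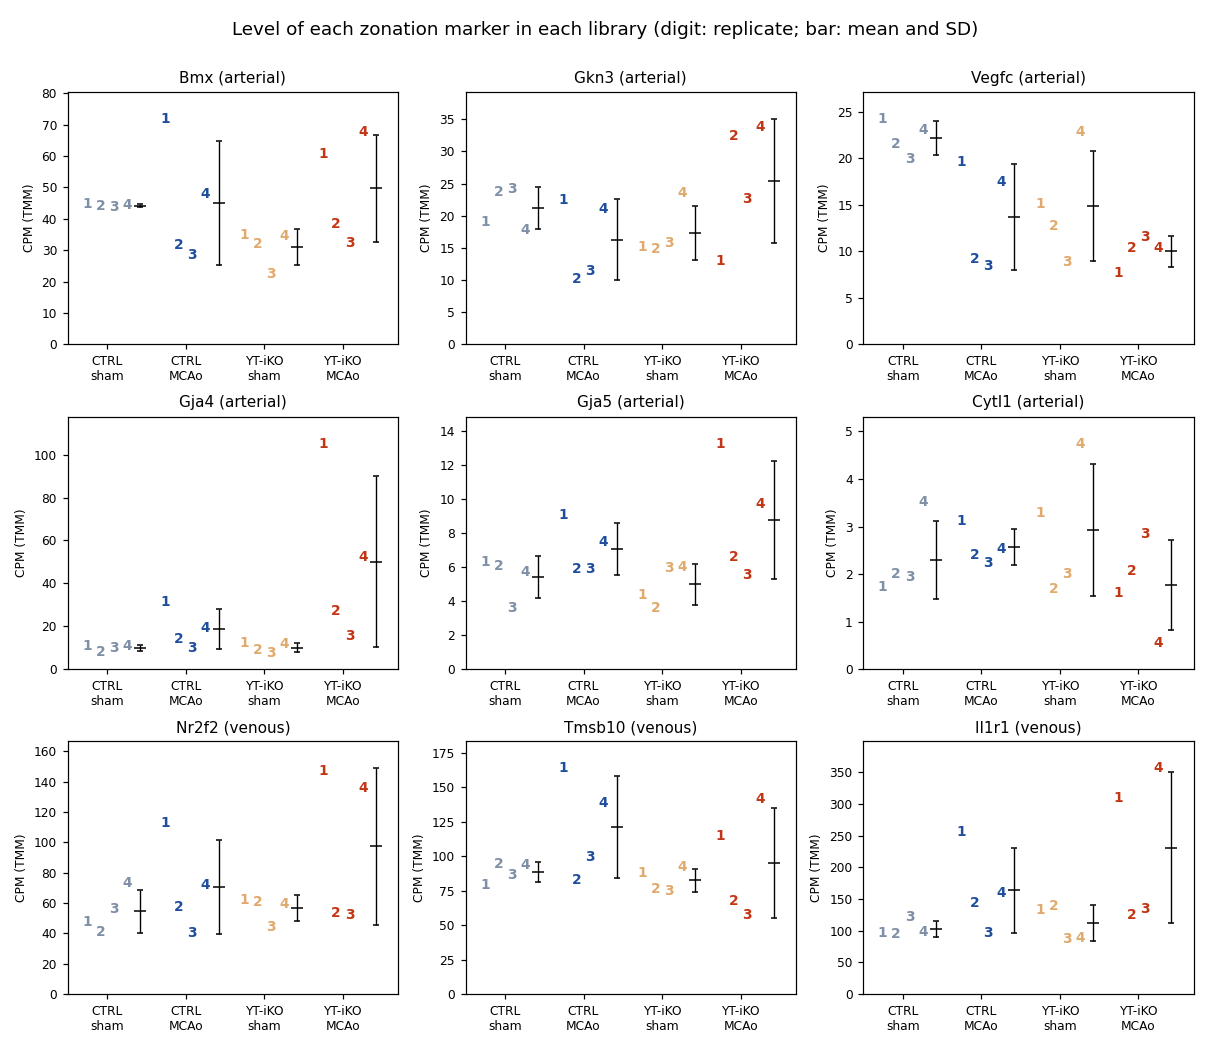
Level of each zonation marker in CPM scaled by TMM factors (y axis, from 0) in the 4 groups (x axis). Each digit is 1 library, named by its replicate number, and the black bar gives the group mean and SD. Replicates 1 and 4 of YT-iKO MCAo lie far above replicates 2 and 3 for Gja4, Nr2f2 and Il1r1, and the 4 CTRL sham libraries of Bmx lie within 43.7 to 44.7 CPM.

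Because YAP and TAZ act through TEAD, the 250 bases before the start sites of the markers were searched for GGAATG (the TEAD core), the NF-kB consensus and TGGGAA (the RBPJ core of Notch signalling), on both strands and with the first 50 bases of each transcript. Start sites were those of RefSeq on GRCm38.p6, where all 9 markers were found, Tmsb10 with 3 start sites and Il1r1 with 2. Of all 32851 promoters of that length, 14.7% held the TEAD letters, 20.7% the NF-kB-like pattern and 25.6% the RBPJ letters. Among the markers, the TEAD letters were present only before the second start site of Il1r1, where they occurred 2 times. The NF-kB-like pattern stood before Nr2f2 and before the first start site of Tmsb10. The RBPJ letters stood before Bmx and the first start site of Il1r1. The 250 bases before Gja4, the single marker that passed the test below, and those before the second start site of Il1r1 are shown with each match in capitals. A match describes letters and not a bound site. The Gja4 stretch is chr4:127314040-127314289 on the minus strand and that of Il1r1 is chr1:40266336-40266585 on the plus strand.
Gja4: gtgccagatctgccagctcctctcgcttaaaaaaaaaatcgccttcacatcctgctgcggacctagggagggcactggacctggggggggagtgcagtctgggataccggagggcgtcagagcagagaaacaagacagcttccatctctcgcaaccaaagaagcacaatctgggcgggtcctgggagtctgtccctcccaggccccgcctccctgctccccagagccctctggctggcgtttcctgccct
Il1r1: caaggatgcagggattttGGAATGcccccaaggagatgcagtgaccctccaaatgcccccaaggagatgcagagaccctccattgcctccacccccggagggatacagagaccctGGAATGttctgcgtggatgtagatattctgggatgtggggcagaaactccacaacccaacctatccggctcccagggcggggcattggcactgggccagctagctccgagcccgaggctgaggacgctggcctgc

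Across the 5 comparisons, 1 of the 9 markers passed an adjusted p of 0.1 in edgeR's quasi-likelihood test. It was Gja4, which rose in YT-iKO bECs after MCAo by 2.32 on the log2 scale (SE 0.42, 4.99-fold, edgeR adjusted p = 0.0158). No marker passed in CTRL bECs after MCAo, between the genotypes after sham or MCAo, or for the difference between the genotypes in the response to MCAo. Of all genes tested, 0.318% passed for MCAo in YT-iKO (0.277% higher after MCAo) and 0.216% for MCAo in CTRL. Between the genotypes, 0.0965% passed after sham and 0.0708% after MCAo. For the difference between genotypes, the main edgeR model, DESeq2 and limma-voom each called 0 genes, and edgeR with the receptor level as a covariate called 1, which is none of the 9 markers. At an unadjusted p under 0.05, edgeR counted 6 of the 9 markers for MCAo in YT-iKO (3.01% of all genes) and 2 for MCAo in CTRL (3.5%). Between the genotypes it counted 1 after sham (2.16% of all genes) and 2 after MCAo (1.49%), and for the difference in response 2 (0.373%). Where comparisons share a group, such as both comparisons with YT-iKO MCAo, their values are not independent and are set side by side.

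**Figure D2:**
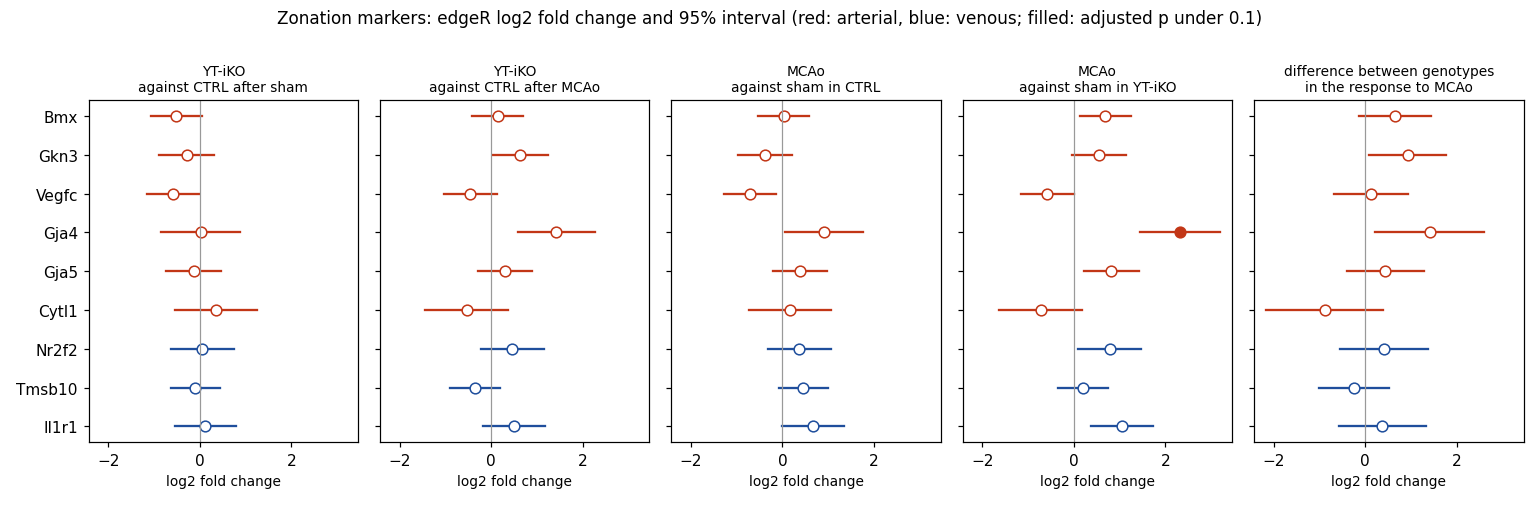
Log2 fold change (x axis) of each marker (y axis) in the 5 comparisons, from edgeR with all 4 groups in 1 model. Lines are 95% confidence intervals, red marks arterial and blue venous markers, and a filled point has an adjusted p under 0.1. Gja4 in YT-iKO after MCAo, at 2.32, is the only filled point.

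The gap junction gene Gja4, which encodes connexin 37, had 10.98, 8.20, 9.79 and 10.7 CPM in CTRL sham replicates 1 to 4. It had 12.1, 8.71, 7.77 and 11.5 CPM in YT-iKO sham. The sham groups overlapped fully (log2 fold change 0.02, SE 0.41). After MCAo, Gja4 was at 31.3, 14.1, 9.77 and 19.4 CPM in CTRL. In YT-iKO it was at 105, 26.9, 15.7 and 52.5 CPM. Every YT-iKO MCAo library was above every YT-iKO sham library (exact permutation p = 0.0286, two-sided, the smallest that 4 against 4 libraries can give), whereas CTRL MCAo replicate 3 lay within the CTRL sham range. Groups of YT-iKO did not overlap, with MCAo above sham, for 0.785% of all genes. In CTRL the log2 fold change after MCAo was 0.91 (SE 0.41, 95% interval 0.06 to 1.77, edgeR adjusted p = 1.00). The genotypes overlapped after MCAo, with a log2 difference of 1.43 (SE 0.41, adjusted p = 0.827 in edgeR). Of 27 alternatives 4 called it, among them the replicate block (1.29, edgeR adjusted p = 0.0996) and abundant-gene factors (1.40, edgeR adjusted p = 0.0961). The difference in response between YT-iKO and CTRL was 1.41 (SE 0.58, 95% interval 0.21 to 2.61), with an edgeR adjusted p of 1.00 over all genes. Over the alternatives it ran from 0.39 (limma-voom) to 1.88 (without the 3 libraries of highest receptor level), and it was 0.64 without YT-iKO MCAo replicate 1.

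The size of the Gja4 increase depended on single libraries. Without YT-iKO MCAo replicate 1, which held the highest level, the log2 fold change was 1.55 (edgeR adjusted p = 0.0888). The call was lost without YT-iKO sham replicate 2, where the log2 fold change was 2.21 and the edgeR adjusted p 0.117. It was also lost when only the 8 YT-iKO libraries entered the model (2.24, edgeR adjusted p = 0.260). With only the 8 CTRL libraries, Gja4 passed the test in CTRL at 0.90 (edgeR adjusted p = 0.0318), and 2 of 27 alternatives called it there. Over 27 alternatives the adjusted p ranged up to 0.260 and 25 kept it under 0.1, and limma-voom with sample weights gave the smallest log2 fold change, 0.91. On the abundant-gene scale Gja4 was at 92.3, 36.5, 19.4 and 38.4 CPM in YT-iKO MCAo. In YT-iKO sham it was at 10.9, 8.20, 10.4 and 12.1 CPM on that scale. The groups stayed apart, and the gap between MCAo replicates 2 and 4 seen before (26.9 and 52.5 CPM) nearly closed. Without the 3 libraries of highest receptor level, the log2 fold change was 2.82 for MCAo in YT-iKO and 2.00 for YT-iKO against CTRL after MCAo. That setting keeps 2 libraries of YT-iKO MCAo, those with the highest Gja4 levels (105 and 52.5 CPM). The cause of the larger values was not tested. In limma-voom the genotype value after MCAo was 0.50, and without YT-iKO MCAo replicate 1 it was 0.67.

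Gja4 is also made by mural cells of vessels, so their markers are given beside it. All 8 of 8 pericyte markers (Pdgfrb, Rgs5 and others) were detected, with sums of 559 to 918 CPM after sham and 513 to 1243 CPM after MCAo in YT-iKO. The 8 of 8 smooth muscle markers summed to 132 to 166 CPM after sham and 108 to 206 CPM after MCAo, and none of either list was at 0 counts. Single smooth muscle markers ranged from Tagln, at 0.252 to 1.62 CPM, through Myh11, at 24.0 to 70.1 CPM, to Mylk, at 47.3 to 103 CPM. Exact permutation tests of these sums between the YT-iKO groups gave p = 0.514 for pericytes and 0.629 for smooth muscle, over 44 such tests with an adjusted p of 0.935 for both. Rgs5, at 241 to 731 CPM, made up much of the pericyte sum. Gene by gene, 7 of the 8 pericyte markers had values above 0 for MCAo in YT-iKO, with a median log2 fold change of 0.57 beside -0.02 over all genes, and 3 of them had an unadjusted p under 0.05 in edgeR. In CTRL 7 of 8 were also above 0, with a median of 0.39 beside 0.07. The smooth muscle markers had 1 of 8 above 0 and a median of -0.13 for MCAo in YT-iKO. None of either list passed the adjusted test. The pericyte markers thus had values in the direction of Gja4, and the part of mural cells in the Gja4 result was not tested.

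Gja5, which encodes connexin 40, the partner of connexin 37 in arterial gap junctions, was at 6.32, 6.04, 3.58 and 5.72 CPM in CTRL sham. It was at 4.34, 3.60, 5.96 and 5.995 CPM in YT-iKO sham, so that the sham groups overlapped. After MCAo it was at 9.04, 5.85, 5.90 and 7.49 CPM in CTRL. YT-iKO MCAo libraries had 13.2, 6.58, 5.50 and 9.72 CPM. Replicate 1 was the highest of its group for both connexins in both genotypes, and YT-iKO MCAo replicate 3 lay within the sham range. The log2 fold change of Gja5 after MCAo was 0.82 in YT-iKO (SE 0.29, 1.77-fold, edgeR adjusted p = 0.758) and 0.38 in CTRL (SE 0.29, edgeR adjusted p = 1.00). Without YT-iKO MCAo replicate 1 the former was 0.46, in limma-voom 0.37, and with only replicates 1 and 4 of that group, the highest, 1.24. Over the 16 libraries, Pearson's r of log2(CPM + 1) between Gja4 and Gja5 was 0.85, and 0.76 for deviations from the group means. These libraries share depth and receptor level, and on the abundant-gene scale the latter was 0.47.

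Bmx, a nonreceptor tyrosine kinase of the Tec family made in arterial endothelium, was at 44.7, 44.2, 43.7 and 44.2 CPM in CTRL sham. In YT-iKO sham it was at 34.8, 31.9, 22.5 and 34.5 CPM. Each YT-iKO sham library was below each CTRL sham library (exact two-sided permutation p = 0.0286), a separation downward that 2.22% of all genes showed. The fit gave a log2 fold change of -0.52 (SE 0.27, edgeR adjusted p = 0.990), so that the difference did not pass the test over all genes. The groups were also apart on the abundant-gene scale, with 39.9 to 42.1 CPM in CTRL sham against 30.0 to 36.1 CPM in YT-iKO sham. After MCAo, Bmx had 71.9, 31.8, 28.6 and 48.0 CPM in CTRL and 60.5, 38.5, 32.2 and 67.7 CPM in YT-iKO. Libraries of the genotypes overlapped, and the spread of CTRL MCAo (SD 19.8) far exceeded that of CTRL sham (SD 0.414). The log2 fold change after MCAo was 0.03 in CTRL (SE 0.27) and 0.69 in YT-iKO (SE 0.27, 95% interval 0.13 to 1.25, edgeR adjusted p = 1.00). With abundant-gene factors the YT-iKO value passed the test at 0.61 (edgeR adjusted p = 0.0174), and 2 of 27 alternatives called it. The lowest value was 0.09, in limma-voom, and the highest 0.86, with only YT-iKO MCAo replicates 1 and 4 kept in that group.

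Vegfc encodes a ligand of the receptors VEGFR3 and VEGFR2. It was at 24.3, 21.5, 19.98 and 23 CPM in CTRL sham and at 19.6, 9.16, 8.41 and 17.4 CPM in CTRL MCAo. All 4 CTRL MCAo libraries were below the CTRL sham range (exact two-sided permutation p = 0.0286), narrowly so for replicate 1, where 1.9% of all genes were apart in this direction. The log2 fold change was -0.70 (SE 0.27, edgeR adjusted p = 1.00), and the groups were also apart on the abundant-gene scale. YT-iKO sham libraries had 15.1, 12.7, 8.88 and 22.8 CPM, of which replicate 4 fell in the CTRL sham range. In YT-iKO MCAo, Vegfc was at 7.67, 10.4, 11.5 and 10.3 CPM. The log2 fold changes were -0.58 for YT-iKO against CTRL after sham (SE 0.27), -0.58 for MCAo in YT-iKO (SE 0.28) and -0.45 for genotype after MCAo (SE 0.28), and no edgeR adjusted p was under 0.990 in this model. Across the alternatives the value for MCAo in YT-iKO ranged from -0.99 without the 3 libraries of highest receptor level (edgeR adjusted p = 0.0712) to -0.30 without YT-iKO sham replicate 4. The CTRL value was called in 2 of 27 alternatives and ranged from -1.14 in limma-voom (adjusted p = 0.00031) to -0.55 without CTRL MCAo replicate 2. The mean level was thus 22.2 ± 1.85 CPM in CTRL sham and 9.99 ± 1.64 CPM in YT-iKO MCAo, groups that differ in both genotype and operation. The receptor genes Kdr (1390 ± 34.0 CPM in CTRL sham) and Flt4 (366 ± 24.9 CPM) passed the test in no comparison in the main edgeR model.

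Gkn3, a secreted gastrokine that marks arterioles of the mouse brain, was at 19.0, 23.7, 24.2 and 17.7 CPM in CTRL sham and at 22.4, 10.2, 11.5 and 21.02 CPM in CTRL MCAo. It was at 15.2, 14.9, 15.7 and 23.5 CPM after sham in YT-iKO and at 12.9, 32.3, 22.7 and 33.7 CPM after MCAo. All groups overlapped, and in YT-iKO MCAo the lowest level was in replicate 1, which was highest for Gja4. The log2 difference between genotypes after MCAo was 0.64 (SE 0.29, 95% interval 0.05 to 1.23), and the difference in response was 0.93 (SE 0.40, interval 0.09 to 1.77), with edgeR adjusted p values of 1.00. In limma-voom with sample weights, the former passed at 1.02 with an adjusted p of 0.0130.

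Cytl1, a secreted cytokine-like protein, had 9 to 72 counts per library, the fewest of the 9 markers in any library being 9 in YT-iKO MCAo replicate 4. Its levels were 1.72, 1.99, 1.94 and 3.51 CPM in CTRL sham and 3.11, 2.41, 2.24 and 2.52 CPM in CTRL MCAo. YT-iKO had 3.28, 1.69, 2.01 and 4.74 CPM after sham and, after MCAo, 1.60, 2.07, 2.85 and 0.561 CPM. The groups overlapped in all 4 pairs compared, and the lowest level was in YT-iKO MCAo replicate 4, which also had the lowest receptor level. The largest difference in size, for the response to MCAo between genotypes, was -0.89 (SE 0.61, 95% interval -2.16 to 0.39, edgeR adjusted p = 1.00). Over the alternatives it ran from -1.86 (without the 3 libraries of highest receptor level) to -0.40 (limma-voom), and it was -0.61 without YT-iKO MCAo replicate 4.

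Among the venous markers, Nr2f2, the nuclear receptor that specifies veins, was at 47.7, 41.0, 55.9 and 73.5 CPM in CTRL sham and at 61.9, 60.9, 43.9 and 59.5 CPM in YT-iKO sham. After MCAo it was at 113, 57.4, 40.2 and 71.6 CPM in CTRL and at 147, 53.7, 52.1 and 136 CPM in YT-iKO. Replicates 1 and 4 of YT-iKO MCAo were above all sham libraries and replicates 2 and 3 were among them, so the groups overlapped. The log2 fold change after MCAo was 0.78 in YT-iKO (SE 0.33, 95% interval 0.09 to 1.47) and 0.37 in CTRL (SE 0.33), both with an edgeR adjusted p of 1.00. On the abundant-gene scale all YT-iKO MCAo libraries, at 129, 72.7, 64.4 and 99.3 CPM, were above the YT-iKO sham range of 55.6 to 62.3 CPM. Without the 3 libraries of highest receptor level, the values were 1.16 for MCAo in YT-iKO and 0.91 for genotype after MCAo. Only replicates 1 and 4 of YT-iKO MCAo (147 and 136 CPM) are then left and the libraries within the sham range are gone. Why these values were larger was not tested. Without YT-iKO MCAo replicate 1 the value for MCAo in YT-iKO was 0.40. In limma-voom with sample weights the value in YT-iKO was -0.08.

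Il1r1, the signalling receptor of interleukin-1, was at 97.0, 94.5, 122 and 98.6 CPM in CTRL sham and at 133, 139, 86.3 and 88.5 CPM in YT-iKO sham. After MCAo it reached 256, 144, 96.2 and 160 CPM in CTRL and 310, 124, 135 and 356 CPM in YT-iKO. Again replicates 1 and 4 of YT-iKO MCAo were far above the sham libraries, and replicates 2 and 3 fell within the YT-iKO sham range. The log2 fold change after MCAo was 0.67 in CTRL (SE 0.33, edgeR adjusted p = 1.00) and 1.05 in YT-iKO (SE 0.33, 2.07-fold, edgeR adjusted p = 0.488), and the difference between them was 0.38 (SE 0.46). On the abundant-gene scale the groups separated in both genotypes. All 4 CTRL MCAo libraries (121 to 198 CPM) were then above CTRL sham (88.3 to 111 CPM), and all 4 YT-iKO MCAo libraries (166 to 272 CPM) above YT-iKO sham (92.7 to 131 CPM). With these factors Il1r1 passed the test in CTRL at 0.72 (edgeR adjusted p = 0.0525) and in YT-iKO at 0.92 (edgeR adjusted p = 0.0112). It also passed in YT-iKO in DESeq2 (1.03, adjusted p = 0.0922). Of 27 alternatives, 5 called it in YT-iKO and 4 in CTRL. The lowest value in YT-iKO was 0.30, in limma-voom (adjusted p = 0.271). The highest was 1.42, without the 3 libraries of highest receptor level, where only the 2 high libraries of YT-iKO MCAo (310 and 356 CPM) are left.

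Tmsb10 encodes a small actin-binding thymosin. It was at 79.0, 94.5, 86.4 and 93.8 CPM in CTRL sham and at 87.5, 76.4, 74.5 and 91.8 CPM in YT-iKO sham. After MCAo it was at 164, 82.9, 99.6 and 139 CPM in CTRL and at 115, 67.5, 57.0 and 141 CPM in YT-iKO. CTRL MCAo replicate 2 lay within the sham range, and YT-iKO MCAo replicates 2 and 3 were below all sham libraries. The log2 fold change after MCAo was 0.46 in CTRL (SE 0.26) and 0.20 in YT-iKO (SE 0.26), with edgeR adjusted p values of 1.00. The genotype difference after MCAo was -0.35 (SE 0.26, edgeR adjusted p = 1.00), and 1 of 27 alternatives called it, limma-voom at -0.61 (adjusted p = 0.0972). On the abundant-gene scale the CTRL groups were apart, and the value passed the test at 0.53 (edgeR adjusted p = 0.0606). The sign in YT-iKO turned to -0.02 with the receptor level as a covariate and to -0.45 in limma-voom.

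The number of markers whose groups did not overlap depended on the scale. With factors from all genes tested it was 1 for MCAo in YT-iKO (Gja4), 1 for MCAo in CTRL (Vegfc) and, between the genotypes, 1 after sham (Bmx) and 0 after MCAo, beside 1.28%, 4.14%, 3.85% and 0.981% of all genes. On the abundant-gene scale it was 4, 5, 1 and 0 in the same order, beside 3.15%, 7.32%, 4.49% and 3.24%. The 5 markers apart in CTRL were Vegfc, which was lower after MCAo (2.61% of all genes), and Gja4, Gja5, Tmsb10 and Il1r1, which were higher (4.71%). The 4 apart in YT-iKO, all higher after MCAo (1.89% of all genes), were Bmx, Gja4, Nr2f2 and Il1r1. This scale moved the median log2 fold change of all genes from 0.11 to 0.30 for the genotypes after sham, from 0.07 to 0.21 for MCAo in CTRL and from -0.02 to -0.16 for the difference in response. Across the 16 libraries, r with the receptor level (both as log2) was -0.74 for Bmx, -0.72 for Nr2f2, -0.69 for Il1r1, -0.67 for Tmsb10, -0.46 for Gja4, -0.33 for Gkn3, -0.32 for Gja5, -0.17 for Vegfc and 0.49 for Cytl1. For deviations from the group means, r went from -0.86 to -0.67 on the abundant-gene scale for Il1r1, from -0.78 to -0.49 for Nr2f2, from -0.80 to -0.37 for Bmx, from -0.60 to -0.31 for Gja4 and from -0.82 to -0.25 for Tmsb10. It turned positive on that scale for Gkn3 (-0.28 to 0.29), Vegfc (-0.28 to 0.34) and Gja5 (-0.33 to 0.35), and for Cytl1 it went from 0.46 to 0.72. Correlations here are descriptions of 16 libraries. The part of the receptor level in these results was not tested.

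Other models called other numbers of markers. In the order MCAo in YT-iKO, MCAo in CTRL, genotype after sham and genotype after MCAo, DESeq2 called 2, 0, 0 and 0 of the 9 markers, beside 0.646%, 0.549%, 0.176% and 0.211% of all genes. In limma-voom with sample weights it was 2, 3, 0 and 2, beside 18.1%, 24.2%, 0.46% and 0.827%. The markers that limma-voom called in CTRL were Bmx (-0.39), Gkn3 (-0.85) and Vegfc (-1.14), all lower after MCAo, and those in YT-iKO were Gja4 (0.91) and Tmsb10 (-0.45). With factors from abundant genes, edgeR called 3, 2, 0 and 1, beside 1.74%, 1.83%, 0.392% and 0.582%. With the receptor level as a covariate it was 2, 1, 0 and 1, beside 1.52%, 2.03%, 0.447% and 0.75%. With only the groups compared in the model it was 0, 3, 0 and 0, beside 0.0624%, 2.52%, 0.506% and 0.12%. With the replicate number as a block it was 1, 0, 0 and 1, beside 0.425%, 0.383%, 0.129% and 0.109%. Without the 3 libraries of highest receptor level, a setting chosen after seeing the data, edgeR called 6 markers for MCAo in YT-iKO (Bmx, Vegfc, Gja4, Gja5, Nr2f2 and Il1r1) and 3 for MCAo in CTRL (Gja4, Tmsb10 and Il1r1). It then called 0 for genotype after sham and 3 after MCAo (Gja4, Nr2f2 and Il1r1). With 2 YT-iKO MCAo libraries left, these calls rest on the pair that was highest for Gja4, Nr2f2 and Il1r1. The shares of all genes were 4.34%, 1.86%, 0.283% and 1.47% in the same order. Leaving these libraries out moved the median log2 fold change of all genes to -0.27 for MCAo in YT-iKO, 0.17 for MCAo in CTRL and -0.42 for genotype after MCAo.

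**Figure D3:**
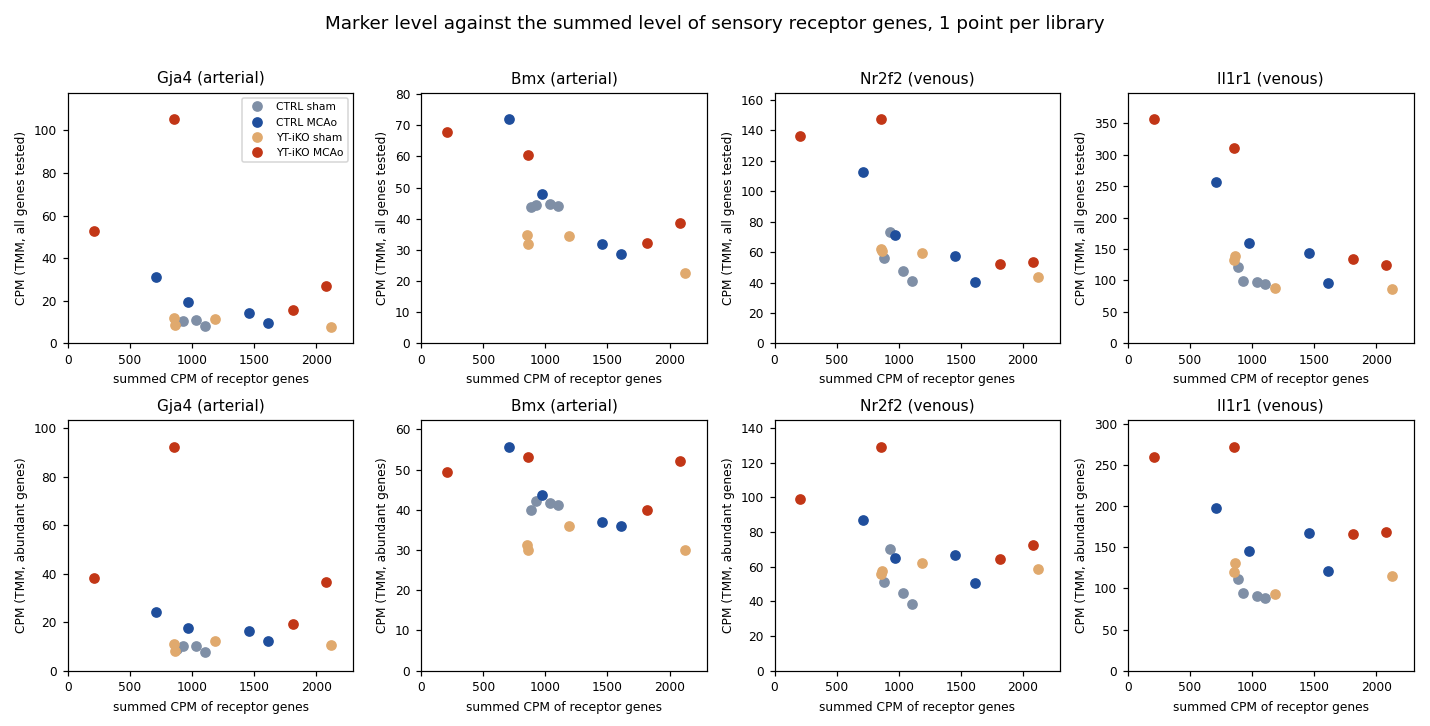
Level of 4 markers (y axis, CPM from 0) against the summed CPM of 1466 receptor genes (x axis), with 1 point per library in the color of its group. The upper row is scaled by TMM factors from all genes tested and the lower row by factors from abundant genes. In the upper row the YT-iKO MCAo libraries split into a high and a low pair for Nr2f2 and Il1r1, and in the lower row the low pair stands above the YT-iKO sham points.

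Summed over the 6 arterial markers, the level in CTRL was 105 ± 1.61 CPM after sham and 103 ± 42.2 after MCAo, and in YT-iKO 81.0 ± 17.2 and 146 ± 51.0 (mean ± SD, n = 4 each). Summed over the 3 venous markers it was 246 ± 22.1 and 355 ± 130 CPM in CTRL and 251 ± 36.2 and 424 ± 208 CPM in YT-iKO. The ratio of the arterial to the venous sum, which does not depend on the scaling of a library, was 0.431 ± 0.0447 after sham and 0.287 ± 0.0230 after MCAo in CTRL, and 0.326 ± 0.0718 and 0.369 ± 0.0827 in YT-iKO. All CTRL sham ratios (0.391 to 0.478) were above all CTRL MCAo ratios (0.259 to 0.313). The YT-iKO groups overlapped, at 0.266 to 0.430 after sham and 0.276 to 0.476 after MCAo. These ratios, and their difference between the genotypes, were not tested, as the markers were chosen with earlier results of these data known. Bmx made up 39.0% of the arterial sum over all libraries and Il1r1 47.8% of the venous sum, so the ratio weighs these genes most. The median r of deviations from the group means was 0.84 over the 3 venous pairs, 0.22 over the 15 arterial pairs and 0.40 over the 18 mixed pairs, and the corresponding medians on the abundant-gene scale were 0.42, 0.22 and 0.03. Of the mixed pairs, Bmx with Tmsb10 and Gja4 with Nr2f2 had the highest r of deviations, both 0.90, and on the abundant-gene scale these were 0.55 and 0.81.

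The genes most like each marker across the 16 libraries were sought among 9127 genes that averaged 10 CPM or more, by Pearson's r of log2(CPM + 1). Gja4 was most like Serpina3n (r = 0.94), a protease inhibitor of the acute phase, and Gimap4 (r = 0.94). Gja5 was most like Tnfaip8 (r = 0.91) and Procr (r = 0.86), the endothelial protein C receptor. Bmx was most like Vamp8 and Uqcrb (both 0.94), Gkn3 like Ric3 and Gcnt1 (both 0.74), Vegfc like Ccnd2 (0.89), and Cytl1 like Dsp (0.82) and Fam20c (0.81). Nr2f2 was most like Vars (0.96) and the venous receptor gene Ephb4 (0.95), Il1r1 like Adam9 and Cemip2 (both 0.96), and Tmsb10 like Rpl31 (0.96) and Mea1 (0.95). Depth and receptor level are common to all genes of a library, and these values describe likeness only.

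Other genes of each vessel type put the markers in context. Of 11 other arterial and arteriolar genes, 1 rose after MCAo in each genotype and none fell in the main edgeR model. It was Mgp, which encodes an inhibitor of calcification, with log2 fold changes of 1.83 in CTRL (edgeR adjusted p = 0.0710) and 2.11 in YT-iKO (edgeR adjusted p = 0.0197). Fibroblast markers, 6 in all, summed to 19.4 to 23.8 CPM in CTRL sham and 28.1 to 35.1 CPM in CTRL MCAo (exact permutation p = 0.0286, adjusted p = 0.935 over 44 tests), and to 19.5 to 39.8 and 27.2 to 38.3 CPM in YT-iKO. Their median log2 fold change after MCAo was 0.70 in CTRL (5 of 6 above 0) and 0.41 in YT-iKO (4 of 6), and their part in the Mgp result was not tested. The median log2 fold change of the 11 arterial genes was -0.32 in CTRL, where it was 0.07 over all genes, and -0.02 in YT-iKO, where it was -0.02 over all genes. Dll4, Hey1, Sox17, Efnb2 and Jag1, of the Notch and ephrin pathways that set arterial identity, had values between -0.47 and 0.13. None of these genes passed in either genotype in the main edgeR model. For the 6 arterial markers the medians were 0.10 in CTRL and 0.62 in YT-iKO. Other models called some of the 11 other arterial genes lower after MCAo. Limma-voom called 9 lower in CTRL and 6 in YT-iKO, beside 4034 and 2765 of all 31085 genes. DESeq2 called 1 in CTRL, beside 38 of 37001 genes. Abundant-gene factors in edgeR gave 1 in each genotype, beside 130 genes in CTRL and 150 in YT-iKO of 31085. The receptor covariate gave 2 in CTRL (192 of 31085 genes), as did only the groups compared (236 of 24690). Each of these called 1 higher in each genotype, except for 0 in YT-iKO with only the groups compared.

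All 12 other venous and venular genes had values above 0 after MCAo in both genotypes. Their medians were 0.73 in CTRL and 1.10 in YT-iKO, beside 0.07 and -0.02 over all genes. This list was chosen with earlier results of these data known, so its shared direction is a description and not a test. Of them 3 rose in CTRL and 4 in YT-iKO, and none fell in edgeR. DESeq2 called 4 in CTRL and 5 in YT-iKO, all higher after MCAo. Ackr1, the venular chemokine receptor that binds chemokines without signalling, went from 2.47 ± 0.569 to 34.4 ± 23.6 CPM in CTRL and from 2.83 ± 1.02 to 39.1 ± 29.6 CPM in YT-iKO. Selp, the P-selectin that captures leukocytes, rose by 4.09 on the log2 scale in CTRL (edgeR adjusted p = 0.00382) and by 3.69 in YT-iKO (edgeR adjusted p = 0.00683). Vwf, the carrier of clotting factor VIII, rose by 1.98 in CTRL (edgeR adjusted p = 0.0281) and by 2.35 in YT-iKO (edgeR adjusted p = 0.00526). Lcn2, an iron-sequestering protein, rose in YT-iKO by 2.77 (edgeR adjusted p = 0.00526) and had a value of 1.60 in CTRL, and the difference between the genotypes was not called. In YT-iKO the median of the 3 venous markers was 0.78, and in CTRL it was 0.46.

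**Figure D4:**
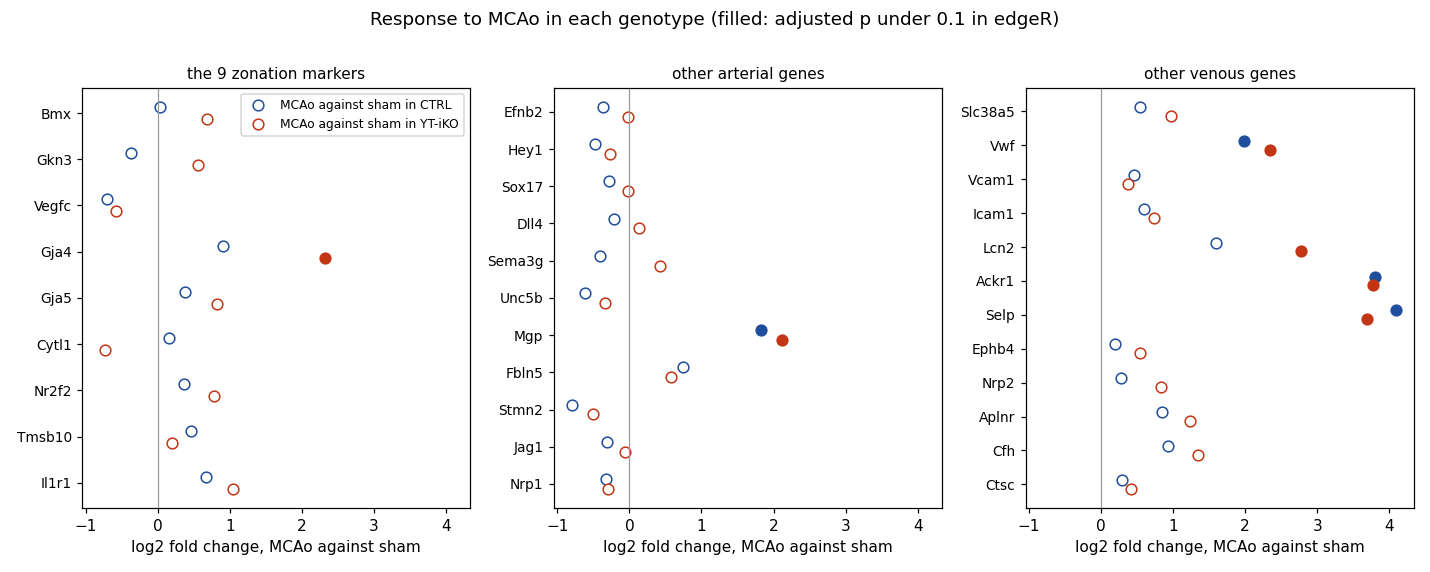
Log2 fold change after MCAo (x axis) of the 9 zonation markers, 11 other arterial genes and 12 other venous genes (y axis) in CTRL (blue) and YT-iKO (red), with filled points for an adjusted p under 0.1 in edgeR. All 12 venous genes, chosen with earlier results of these data known, lie to the right of 0 in both genotypes, led by Selp and Ackr1.

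Between the genotypes, the main edgeR model called 1 of the 12 other venous genes after sham and 0 after MCAo (1 and 2 at an unadjusted p under 0.05). Slc38a5, an amino acid transporter, fell from 88.4 ± 14.3 CPM in CTRL sham to 29.1 ± 8.07 CPM in YT-iKO sham, by 1.60 on the log2 scale (edgeR adjusted p = 0.0537). After MCAo its value was -1.16 (SE 0.31, edgeR adjusted p = 0.589), in the same direction, and DESeq2 called it there (-1.19, DESeq2 adjusted p = 0.0286). Of 10 capillary genes, the main edgeR model called 1 after each operation, and 5 in each comparison had an unadjusted p under 0.05. It was Slc16a1, the lactate transporter, which fell by 1.26 after sham (edgeR adjusted p = 0.0734) and by 1.61 after MCAo (edgeR adjusted p = 0.00852). DESeq2 called 1 capillary gene after sham and 3 after MCAo, limma-voom 3 and 3, and edgeR with the receptor level as a covariate 2 and 6, all lower in YT-iKO. The DESeq2 calls after MCAo were Slc16a1, Tfrc, the transferrin receptor gene (-1.05, DESeq2 adjusted p = 0.0457), and Slc22a8, an organic anion transporter gene (-0.77, DESeq2 adjusted p = 0.0840). In both comparisons 9 of the 10 capillary genes had values below 0, with medians of -0.55 and -0.61, beside 0.11 and 0.03 over all genes. General endothelial markers had 10 of 10 values below 0 after sham (median -0.26) and 8 of 10 after MCAo (median -0.12), and pericyte markers 7 of 8 (median -0.34) and 8 of 8 (median -0.20). Their part in the capillary values, and in those of Bmx and Vegfc after sham, was not tested. None of the 11 other arterial genes passed between the genotypes in the main edgeR model. At an unadjusted p under 0.05 there were 0 of them after sham and 2 after MCAo (Sema3g and Stmn2). DESeq2 called 0 of them after either operation, and limma-voom called those 2 after MCAo. After MCAo, edgeR called 2 of the 11 with abundant-gene factors and 1 with the receptor level as a covariate, all higher in YT-iKO.

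Of 20 relatives and partners of the markers, none passed in any of the 5 comparisons in edgeR or DESeq2. Limma-voom called 5 for MCAo in CTRL, 4 for MCAo in YT-iKO and 1 (Gja1) for genotype after sham. In the same order, limma-voom called 24.2%, 18.1% and 0.46% of all genes. At an unadjusted p under 0.05 there were 2 for MCAo in YT-iKO (Myd88 and Irak4), 1 for MCAo in CTRL (Myd88), 1 for genotype after sham (Gja1) and 0 otherwise in edgeR. The 20 genes comprised the channel genes Gja1, Gjc1 and Panx1, the VEGF-C receptors Kdr and Flt4, Tec kinases, relatives of Nr2f2, the thymosin Tmsb4x and 9 genes of interleukin-1 signalling. Gja1, which encodes connexin 43, was at 62.7 ± 7.50 CPM in CTRL sham and 38.2 ± 9.08 CPM in YT-iKO sham (log2 fold change -0.71, edgeR adjusted p = 0.990). The interleukin-1 ligands Il1a and Il1b were at or below 1.52 CPM in mean in every group, and the coreceptor gene Il1rap was between 10.3 and 11.2 CPM. The medians of the 20 genes after MCAo were 0.20 in CTRL and -0.01 in YT-iKO.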

How the data were processed

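RNA of sorted bECs was measured in 16 libraries made with a SMART-Seq kit. The deposited table holds raw counts per gene, made by the authors with STAR 2.7.8a on GRCm38 (submitters' processing notes). The counting program and its strand setting are not given in the sources used here. Counts were tested with edgeR 4.0.16 (R 4.3.3), with quasi-likelihood fits and TMM factors, after a filter (at least 10 counts, 15 in total) that left 31085 genes. All 4 groups entered 1 model without a block, and p values were adjusted by Benjamini-Hochberg over all genes, with calls at 0.1. Exact permutation tests on log2(CPM + 1) covered the 70 assignments of 4 and 4 libraries, and do not go below 0.0286. CPM per kilobase used exon lengths of GENCODE M21. Alternatives were DESeq2 1.42.0, limma-voom (limma 3.58.1), RLE and abundant-gene factors, other filters, covariates, a replicate block, only the groups compared, and leaving out each library. Libraries are pools of mice, each library counted as 1 replicate, and p values measure the spread between pools. Nothing in the sources used here says that same-numbered libraries were processed together. The markers and gene lists were chosen with earlier results of these data known, and the text names all 9 markers, list genes that passed the test and the genes most like each marker. Depth ranged from 11418262 to 23074547 counts per library.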

Additional observations from a re-analysis of the deposited data

Results flagged for a closer look

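In 4 cases a single library lay far from the other 3 of its group, by the gap to its nearest neighbour over the range of the group (Dixon's test). Gkn3 was at 23.5 CPM in YT-iKO sham replicate 4, Cytl1 at 3.51 CPM in CTRL sham replicate 4, Nr2f2 at 43.9 CPM in YT-iKO sham replicate 3 and Il1r1 at 122 CPM in CTRL sham replicate 3. Of 36 groups of 4 libraries tested, chance alone sets apart about 1 in 20. YT-iKO sham replicate 3, which had the low Nr2f2 level, also had the highest receptor level (2124 CPM), and the part of that level was not tested.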

How the results depend on the processing

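Gja4 kept its direction for MCAo in YT-iKO under all 27 alternatives and its edgeR, DESeq2 or limma-voom call under 25. Of 1206 values of single markers under the alternatives, 1142 kept direction and side of the threshold. With the same sign, 29 newly passed and 2 no longer passed, and 33 changed sign. Among the 33, the limma-voom values of Bmx for MCAo in CTRL (-0.39, adjusted p = 0.0778) and Tmsb10 for MCAo in YT-iKO (-0.45, adjusted p = 0.0943) also passed. The number of markers called, 1 for MCAo in YT-iKO and 0 elsewhere, moved to 2 in YT-iKO with DESeq2, limma-voom or the receptor covariate, to 3 with abundant-gene factors, to 0 with only the groups compared and to 6 without the 3 libraries of highest receptor level (chosen after seeing the data). For MCAo in CTRL it moved to 1 with the receptor covariate, 2 with abundant-gene factors, and 3 with limma-voom, with only the groups compared or without those 3 libraries. For genotype after MCAo it moved to 1 with abundant-gene factors, the receptor covariate or the replicate block, 2 with limma-voom and 3 without those libraries. Leaving out 1 library at a time gave 0 to 2 for MCAo in YT-iKO, namely 0 without YT-iKO sham replicate 2 and 2 without YT-iKO MCAo replicate 2, and 0 in the other comparisons. With only the groups compared, or without those libraries, fewer samples enter the fit; otherwise the cause was not tested.

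Signs changed in these cases. Limma-voom gave Vegfc 0.14, Gja5 -0.026, Cytl1 0.063 and Nr2f2 -0.0045 for genotype after MCAo, Bmx -0.39 for MCAo in CTRL, Nr2f2 -0.084 and Tmsb10 -0.45 for MCAo in YT-iKO, and Nr2f2 -0.19 and Il1r1 -0.10 for the difference in response. For genotype after sham, abundant-gene factors gave Gja5 0.078 and Tmsb10 0.067. The receptor covariate gave Tmsb10 -0.016 for MCAo in YT-iKO, and Xist above 50 CPM as a covariate, chosen after seeing the data, gave Bmx -0.044 for MCAo in CTRL. Without the 3 libraries the difference in response was -0.33 for Vegfc and 0.0081 for Tmsb10. Leaving out 1 library at a time, ranges that crossed 0 were -0.070 to 0.13 (Gja4), -0.069 to 0.24 (Nr2f2) and -0.0079 to 0.23 (Il1r1) for genotype after sham, -0.049 to 0.35 (Bmx) and -0.049 to 0.48 (Gja5) for genotype after MCAo, -0.24 to 0.16 (Bmx) for MCAo in CTRL, -0.058 to 0.39 (Tmsb10) for MCAo in YT-iKO and -0.085 to 0.40 (Vegfc) for the difference. The cause was not tested.

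With the replicate number as a block, Gja4 was -0.024 for genotype after sham, 1.29 after MCAo (edgeR adjusted p = 0.0996) and 2.07 for MCAo in YT-iKO (adjusted p = 0.00052 in edgeR), and Bmx was -0.071 for MCAo in CTRL. Of 24 pairs of libraries with the same number, 17 correlated above 0.1 (median r 0.26, against -0.13 for 72 pairs with different numbers), and 9 of 16 libraries matched their own number best, a hint from the data of shared structure. The labels give no shared litter, batch or day and 17 of 24 is not every pair, so the block was kept as an alternative. The difference in response could not be fitted with only 2 groups. Counting error is largest for Cytl1, with 9 to 72 counts per library.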
